A study of Homo sapiens with 6 samples.

Results

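The 6 genes described here encode transcription factors through which the circadian clock passes its rhythm on to other genes: DBP, TEF and HLF, NFIL3, and BHLHE40 and BHLHE41. They were chosen by gene symbol, and all 6 were found among the 58395 genes of the deposited count tables. RNA was measured in 6 clonal lines of HEK293, an established human embryonic kidney cell line. GST lines 2, 8 and 9 expressed GST-3F as the control protein, and NOCT lines 4, 11 and 12 expressed NOCT ∆(2-15)-3F, a tagged nocturnin without residues 2 to 15. Nocturnin is itself the product of a clock-controlled gene and acts on NADP and NADPH. Every line was 1 clone, had grown for 3 days in serum before harvest and carried a tagged transgene, controls included. The labels name neither the promoter of the transgenes nor any synchronisation of the cells, and give 1 harvest per line.

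DBP, TEF and HLF form the PAR-bZIP family, whose members bind a DNA element called the D-box and activate genes of metabolism and of the clock itself. NFIL3, also called E4BP4, binds the same element and represses. BHLHE40 (DEC1) and BHLHE41 (DEC2) are repressors that bind the E-box, the element through which CLOCK and BMAL1 (gene symbol ARNTL) activate PER, CRY and PAR-bZIP genes. BHLHE40 is also known as a gene induced by hypoxia and by serum.

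The E-box letters CACGTG, which read the same on both strands, were looked for in the 250 bases before each RefSeq start of the 6 genes on GRCh38.p14. They stood in 4 of the 9 windows, belonging to 3 of the 6 genes: BHLHE40, BHLHE41 and both starts of TEF. Of 35116 such windows in the RefSeq table, 6.34% held them. The D-box letters TTANGTAA, searched on both strands, were in none of the 9 windows and in 1.98% of all windows. A match of letters is a description of the sequence and not evidence of binding. The 4 stretches are shown because they place the element shared by the DEC factors and their own regulators, with the E-box in capitals. They lie at chr3:4979187-4979216 (plus strand), chr12:26125068-26125097 (minus), chr22:41367248-41367277 (plus) and chr22:41381737-41381766 (plus). In GENCODE 29 the first and the second fall in the 5′ UTR exons of BHLHE40 and BHLHE41, the third lies upstream of TEF and the fourth in an intron of TEF.
BHLHE40: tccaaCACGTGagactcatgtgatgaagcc
BHLHE41: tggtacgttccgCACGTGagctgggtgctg
TEF, upstream start: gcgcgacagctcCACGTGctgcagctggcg
TEF, downstream start: cacctggccccgCACGTGtctatcttatcc
The 2 windows of HLF had neither element. The window before its upstream start, chr17:55264710-55264959 on the plus strand, is shown because HLF was the gene whose lines separated by group. Groups were apart in this way for 20.0% of all genes tested, and for 9.54% with NOCT lines lower. The count of 1 of 6 was thus near the background.
HLF: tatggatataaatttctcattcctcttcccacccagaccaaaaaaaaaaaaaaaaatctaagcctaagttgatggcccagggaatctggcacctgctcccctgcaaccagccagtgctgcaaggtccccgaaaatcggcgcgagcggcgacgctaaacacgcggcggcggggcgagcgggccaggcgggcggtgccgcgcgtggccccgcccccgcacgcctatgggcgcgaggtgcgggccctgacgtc

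The libraries held 19729745 to 24422406 gene counts each. The GST construct had 46 to 88 counts in GST lines and 0 to 1 in NOCT lines, and the NOCT construct 46 to 82 in NOCT lines and 3 to 7 in GST lines, so each library carried the construct its label names. Of 9 marker genes of HEK293 cells, 8 had a mean of at least 1 TPM, among them VIM at 578 and CDH2 at 109. PAX2 was near that limit at 1.31 TPM (0.370 to 2.45 over the lines). NEFM was below it at 0.875 TPM (0.125 to 4.44). The defining markers CD3E (T cells), TTR and SERPINA1 (hepatocytes), COL1A2 (fibroblasts) and UMOD (kidney tubule) had no count in any line. Of the 20 markers of these cell types and of endothelium, COL1A1 alone had a mean of at least 1 TPM, at 4.07 (2.14 to 7.28 over the lines). Among the rest the highest were KDR (endothelium) at 0.740 TPM, LUM (fibroblasts) at 0.693 and CD14 (myeloid cells) at 0.642. The summed level of the 4 fibroblast markers was 3.12 to 3.67 TPM in GST lines and 2.14 to 8.78 TPM in NOCT lines, and its part in the results was not tested. NOCT line 12 stood apart from NOCT lines 4 and 11 for several of the genes below, and values without it are given there. In bulk RNA, fewer cells expressing a gene and less RNA per cell cannot be told apart.

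Between genes, levels were compared in TPM (the authors' unit, scaled to gene length and to the library) as means over the 6 lines. BHLHE40 was the most abundant at 47.7 TPM, with a range over lines of 18.2 to 91.9. NFIL3 followed at 15.2 TPM (10.5 to 19.7) and BHLHE41 at 9.93 (8.47 to 13.8). The 3 activators were lower, with TEF at 3.91 TPM (2.95 to 5.06), DBP at 2.55 (2.24 to 2.95) and HLF at 1.39 (0.904 to 1.76). The ranges of BHLHE40 and NFIL3 overlapped, as did those of NFIL3 and BHLHE41, and in NOCT line 12 BHLHE41 (13.8 TPM) was above NFIL3 (10.5 TPM). Among genes with any TPM above 0, BHLHE40 stood at the 94.1st percentile and HLF at the 51.5th. The repressors of the group were thus the abundant transcripts and the activators the scarce ones in every line. NFIL3 had 1.28 to 2.63 times the summed TPM of DBP, TEF and HLF, and BHLHE40 and BHLHE41 together had 3.50 to 13.7 times that sum.

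**Figure D1:**
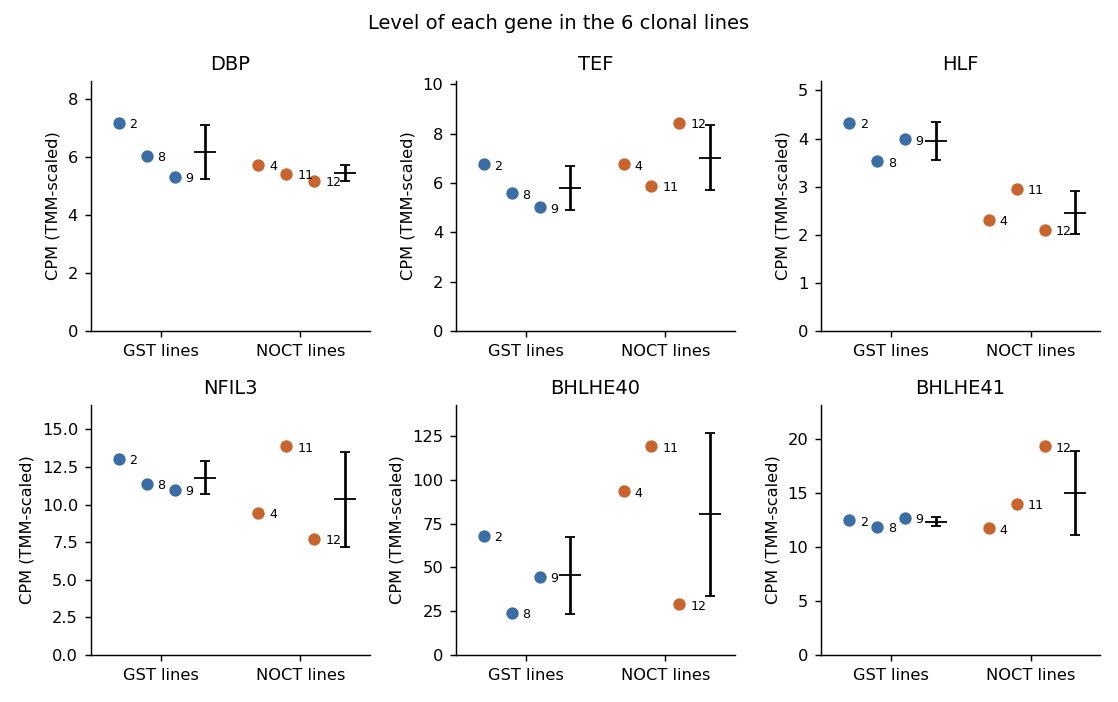
Level of each of the 6 genes in TMM-scaled CPM (linear axes from 0). Points are lines, numbered as in the labels, in blue for GST and orange for NOCT lines, and black bars give the group mean ± SD (n = 3). The groups are apart for HLF and overlap for the other 5 genes, and BHLHE40 ranges from 24.0 to 119 CPM.

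Levels of 1 gene were compared between lines in CPM, read counts scaled to library size with edgeR's TMM factors. No gene of the group passed the test between NOCT and GST lines. The edgeR quasi-likelihood test, adjusted over 17261 genes, called 0 of the 6 at an adjusted p under 0.05, where 0.0579% of all genes tested were called (10 genes). By DESeq2 the count was also 0 of 6, beside 3.41% of genes, and in the authors' deposited table it was 0 of 6, beside 2.87%. At an unadjusted p under 0.05 there was 1 of 6, HLF, which was lower in NOCT lines. Of all genes, 13.9% passed that limit, 7.38% with NOCT lines higher and 6.52% with NOCT lines lower. Of the 6 genes, 3 had a fold change above 0 (TEF, BHLHE40, BHLHE41) and 3 below 0 (DBP, HLF, NFIL3). Their median log2 fold change was 0.05, and that of all genes tested was 0.0046. The exact two-sided permutation test cannot give a p below 0.1 for 3 lines against 3.

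HLF, an activator of the PAR-bZIP family, was the gene whose groups did not overlap. Its read counts were 82, 76 and 81 in GST lines 2, 8 and 9, and 59, 66 and 42 in NOCT lines 4, 11 and 12. In CPM these are 4.33, 3.53 and 3.98 against 2.32, 2.96 and 2.11 CPM. Each NOCT line was thus below each GST line, with NOCT line 11 nearest to the controls. On this scale, groups did not overlap for 20.0% of all genes tested, and for 9.54% with NOCT lines lower. HLF was below in every NOCT line on 5 other scales too, where the share of genes lower in this way was 7.08% with total gene counts, 9.87% with RLE factors, 3.96% with spike-in totals, 5.56% in the authors' TPM and 9.73% with the level of the neighbouring genes removed. In either direction, groups were apart for 19.8%, 19.9%, 26.8%, 19.9% and 19.7% of genes on these scales. The means were 3.95 ± 0.401 CPM in GST lines and 2.46 ± 0.444 CPM in NOCT lines (SD, n = 3 each). On the log2 scale the fold change was -0.68 (SE 0.23), with a 95% interval of -1.22 to -0.14. Its unadjusted p was 0.0199 and its adjusted p 0.265 in edgeR, and the exact two-sided permutation p was 0.1. The authors' deposited DESeq2 table, whose name refers to shrinkage, gives HLF a log2 fold change of -0.49 with an adjusted p of 0.233. DESeq2 without shrinkage gave -0.69 here. HLF (ENSG00000108924) lies on chromosome 17 at 55265012 to 55325065, plus strand. The median level of its 100 chromosomal neighbours differed by 0.0056 on the log2 scale between the groups, and the fold change of HLF was -0.68 with that level removed.

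TEF, the most abundant of the 3 activators, had a higher mean in NOCT lines, within the spread of the lines. The counts were 128, 120 and 102 (GST lines 2, 8 and 9) and 172, 131 and 168 (NOCT lines 4, 11 and 12). In CPM these are 6.76, 5.57 and 5.02 against 6.76, 5.88 and 8.44. GST line 2 was level with NOCT line 4 and above NOCT line 11, so the groups overlapped. The log2 fold change was 0.28 with a 95% interval of -0.21 to 0.77 (SE 0.21, edgeR adjusted p 0.599). It was 0.13 without NOCT line 12 and 0.19 without GST line 9. TEF (ENSG00000167074) lies on chromosome 22 at 41367333 to 41399326, plus strand. Its chromosomal neighbours were higher in NOCT lines too, at 0.12, 0.08 and 0.17 above the mean of the 6 lines (log2) for NOCT lines 4, 11 and 12. GST lines 2, 8 and 9 gave -0.21, -0.08 and -0.07. With that level removed, the fold change of TEF was 0.03 (edgeR adjusted p 0.969).

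DBP, named for the D-box it binds and in many tissues among the genes with the strongest daily rhythm, varied least between lines. Its counts were 136, 130 and 108 in GST lines 2, 8 and 9, and 146, 121 and 103 in NOCT lines 4, 11 and 12. This corresponds to 7.18, 6.04 and 5.31 CPM against 5.74, 5.43 and 5.17 CPM. The highest and the lowest line differed 1.39-fold, and all 3 NOCT lines lay below GST lines 2 and 8. The log2 fold change was -0.18 with a 95% interval of -0.62 to 0.26 (SE 0.19, edgeR adjusted p 0.712). It was -0.061 without GST line 2 and -0.28 without GST line 9. DBP (ENSG00000105516) lies on chromosome 19 at 48630030 to 48637438, minus strand. It shares 661 exonic bases with SPHK2 on the opposite strand. The counting used the strand: among 733 genes lying entirely within opposite-strand exons, 153 reached 10 reads, against 8 of 1077 lying within same-strand exons. The neighbours of DBP had a group difference of the other sign. Their level was 0.35, 0.16 and -0.13 for NOCT lines 4, 11 and 12, whereas GST lines 2, 8 and 9 gave -0.19, -0.11 and -0.05. With their level removed, the fold change of DBP was -0.43 (edgeR adjusted p 0.384).

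The sum of the 3 activators differed by less than the spread between lines. The sum of DBP, TEF and HLF was 7.70 ± 0.836 TPM in GST lines and 7.97 ± 0.425 TPM in NOCT lines (SD, n = 3 each). TEF made up 45.0%, 44.8% and 42.9% of it in GST lines 2, 8 and 9, and 53.9%, 49.4% and 61.7% in NOCT lines 4, 11 and 12. HLF made up 20.6%, 20.3% and 24.3% in the GST lines and 13.2%, 17.8% and 11.0% in the NOCT lines. DBP made up 32.7% to 35.0% in GST lines and 27.3% to 32.9% in NOCT lines. The 3 shares are parts of 1 sum, so a lower level of HLF raises the other shares, and TEF itself overlapped between the groups in TPM as in CPM. Shares within a library do not depend on how the libraries are scaled, and these were chosen after the values of the single genes were seen and carry no test.

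**Figure D2:**
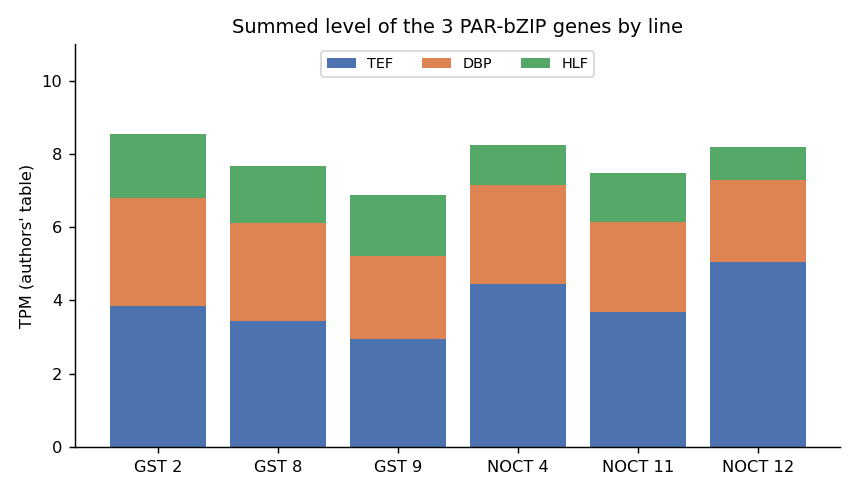
Stacked bars give the TPM of TEF, DBP and HLF in each line, from the authors' table. The sums lie between 6.88 and 8.55 TPM in all 6 lines, and the HLF part is smaller in all 3 NOCT lines. The TEF part overlaps, at 3.69 TPM in NOCT line 11 and 3.85 TPM in GST line 2.

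NFIL3, the repressor that competes with these activators for the D-box, differed within the NOCT group more than between the groups. Its read counts were 247, 245 and 223 in GST lines 2, 8 and 9, and 240, 309 and 154 in NOCT lines 4, 11 and 12. The corresponding levels were 13.0, 11.4 and 11.0 CPM in GST lines and 9.44, 13.9 and 7.73 CPM in NOCT lines. NOCT line 11 was the highest of all 6 lines and NOCT line 12 the lowest, a 1.79-fold range inside 1 group. The log2 fold change was -0.19 with a 95% interval of -0.71 to 0.33 (SE 0.23, edgeR adjusted p 0.748). It was -0.022 without NOCT line 12, -0.11 without GST line 2 and -0.46 without NOCT line 11. NFIL3 (ENSG00000165030) lies on chromosome 9 at 91409045 to 91423862, minus strand. Its neighbours were low in the same NOCT lines, at -0.31 in line 4 and -0.34 in line 12 against 0.10 in line 11 and 0.13 to 0.21 in the GST lines. With their level removed, the fold change of NFIL3 changed sign, to 0.14 (edgeR adjusted p 0.714).

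NFIL3 and TEF therefore had group differences of the same sign as the chromosome around them, and DBP the opposite sign. The neighbours of HLF, BHLHE41 and BHLHE40 differed by 0.0056, 0.02 and 0.04 on the log2 scale. With the level of its neighbours removed, the fold change of BHLHE40 was 0.76 (edgeR adjusted p 0.422), against 0.82 without that step. Of the 10 nearest tested genes around NFIL3, 5 on each side, all 10 correlated with it above 0 over the 6 lines, up to 0.968 for SPTLC1. So did all 10 around TEF, 9 of 10 around BHLHE40, 7 of 10 around HLF and 7 of 10 around BHLHE41. Around DBP 2 of 10 did. The median correlation was 0.65 around NFIL3, 0.46 around BHLHE40, 0.31 around HLF and 0.27 around TEF. It was 0.08 around BHLHE41 and -0.14 around DBP. The share of all genes correlating above 0 with each was not computed. These values come from the same 6 libraries and are descriptions. Whether the number of chromosome copies differed between the lines was not tested.

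**Figure D3:**
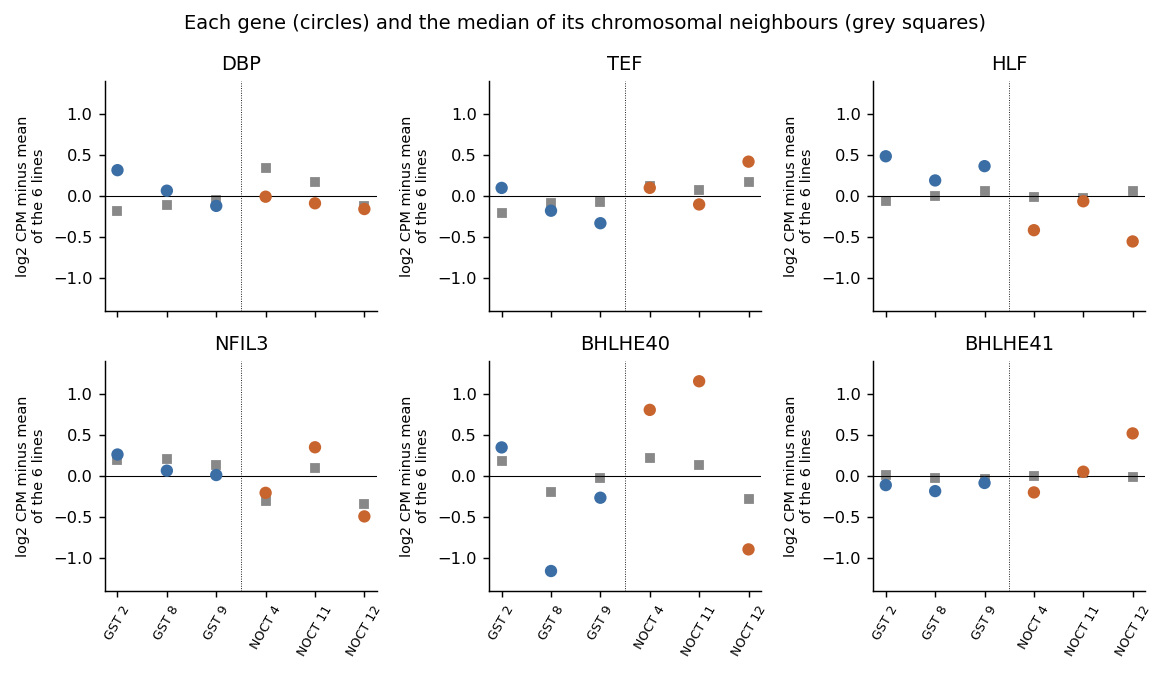
For each gene, circles give log2 CPM minus the mean of the 6 lines (blue GST, orange NOCT), and grey squares the median of the same quantity over up to 50 tested genes on each side. Squares have the sign of the circle in each line for NFIL3 and BHLHE40, and lie near 0 for HLF and BHLHE41.

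BHLHE40, the DEC1 repressor, was the most variable gene of the group, and its variation ran across the groups. Its read counts were 1289, 516 and 905 in GST lines 2, 8 and 9, and 2377, 2652 and 573 in NOCT lines 4, 11 and 12. In CPM these are 68.1, 24.0 and 44.5 against 93.5, 119 and 28.8. NOCT lines 4 and 11 were above every GST line, while NOCT line 12 was lower than GST lines 2 and 9. The highest line had 4.96 times the level of the lowest, with 2.84-fold inside the GST group and 4.14-fold inside the NOCT group. The SD within groups, 0.93 on the log2 scale, exceeded that of 98.9% of the genes tested. The means were 45.5 ± 22.1 CPM in GST lines and 80.4 ± 46.5 CPM in NOCT lines (SD, n = 3 each), and the log2 fold change was 0.82 with a 95% interval of -0.35 to 2.00 (SE 0.51, edgeR adjusted p 0.512). The authors' deposited DESeq2 comparison, whose name refers to shrinkage, gives BHLHE40 a log2 fold change of 0.26 with an adjusted p of 0.696. DESeq2 without shrinkage gave 0.82 here. In edgeR, leaving out each line in turn gave 0.42 (without NOCT line 11) to 1.23 (without GST line 2). Without NOCT line 12 it was 1.22 with an adjusted p of 0.0748, and without GST line 8 it was 0.51.

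Part of the variation of BHLHE40 was shared with a gene close to it and with genes elsewhere. BHLHE40 (ENSG00000134107) lies on chromosome 3 at 4979116 to 4985323, plus strand. EDEM1, which acts in the disposal of misfolded glycoproteins, starts 209 kb downstream. It was at 43.9, 29.8 and 36.4 CPM in GST lines 2, 8 and 9 and at 44.6, 44.7 and 32.2 CPM in NOCT lines 4, 11 and 12. Over the 6 lines its log2 level had a Pearson correlation of 0.968 with that of BHLHE40. Both genes placed the 6 lines in the same order, with NOCT line 11 highest and GST line 8 lowest. The range was 4.96-fold for BHLHE40 and 1.5-fold for EDEM1. On the other side, ITPR1 had a correlation of -0.612, so the shared order did not extend over all 10 nearest tested genes. Of the 11066 genes compared, 29 (0.262%) had this order of lines and 333 (3.01%) correlated above 0.9, among them CSTF1 on chromosome 20 at 0.998. These correlations share the 6 libraries and carry no p-value. BHLHE40-AS1, the antisense transcript beside BHLHE40, was scarce and had 22 and 17 counts in NOCT lines 4 and 11, where BHLHE40 was highest, and 2 to 7 in the other lines.

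BHLHE41, the DEC2 repressor, was even across GST lines and uneven across NOCT lines. The counts were 236, 255 and 258 (GST lines 2, 8 and 9) and 298, 311 and 384 (NOCT lines 4, 11 and 12). In CPM these are 12.5, 11.8 and 12.7 against 11.7, 14.0 and 19.3. NOCT line 12 was the highest, and NOCT line 4 was the lowest of the 6 lines, so the groups overlapped on this scale. In the authors' TPM, where library scaling differs, the NOCT lines (9.18, 10.5 and 13.8) were all above the GST lines (8.47, 8.72 and 8.92). Groups were apart in that direction for 14.4% of genes in TPM. The same held for BHLHE41 with spike-in totals, beside 22.9% of genes. The log2 fold change was 0.28 with a 95% interval of -0.17 to 0.73 (SE 0.20, edgeR adjusted p 0.565), and 0.05 without NOCT line 12. BHLHE41 (ENSG00000123095) lies on chromosome 12 at 26120026 to 26125127, minus strand.

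The 2 DEC genes did not share a pattern. NOCT line 12 was the highest line for BHLHE41 and the second lowest for BHLHE40. BHLHE40 exceeded BHLHE41 by 8.21-fold and 8.77-fold in TPM in NOCT lines 4 and 11, and by 1.54-fold in NOCT line 12. In GST lines 2, 8 and 9 the ratio was 5.62, 2.08 and 3.61. Over the 6 lines, the log2 levels of the 2 genes had a Pearson correlation of -0.29, and among the 15 pairs of the 6 genes the correlations ran from -0.67 (TEF with HLF) to 0.73 (HLF with NFIL3). These are descriptions over 6 libraries.

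**Figure D4:**
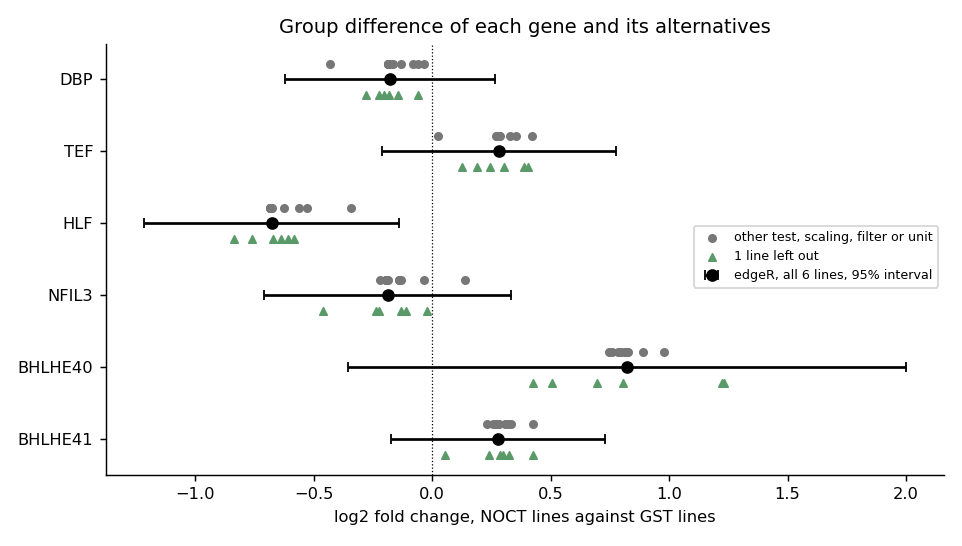
Log2 fold change of each gene, NOCT against GST lines. Black points and bars are the edgeR estimate from all 6 lines with its 95% interval, grey circles other tests, scalings, filters or units, and green triangles fits with 1 line left out. HLF lies below 0 throughout, and NFIL3 has 1 grey circle above 0.

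By the same measure of likeness, most of the genes nearest to the other members lay on other chromosomes than the member. HLF was followed most closely by SFRP1, a secreted WNT antagonist (r = 0.990), and ZNF618 (0.986), TEF by DHTKD1 (0.987) and DNAH14 (0.974), and DBP by UBA6-AS1 (0.984) and LINC01515 (0.982). For BHLHE41 they were ZCCHC8 (0.996) and FOXRED2 (0.991), and for NFIL3 MFSD14B (0.985) and NRDC (0.983). MFSD14B starts 2951 kb from NFIL3 on chromosome 9, and ZCCHC8 96376 kb from BHLHE41 on chromosome 12. The correlations named are the highest among 11066 genes over 6 lines. Of these genes, 0.380% correlated above 0.9 with DBP and 0.560% with TEF. The share was 1.35% for HLF, 0.569% for NFIL3 and 0.849% for BHLHE41. SFRP1 was at 17.4, 13.5 and 16.7 CPM in GST lines 2, 8 and 9 and at 7.98, 12.2 and 7.18 CPM in NOCT lines 4, 11 and 12.

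Genes linked to these 6 were given by 8 lists with 65 genes, of which 52 had enough counts for the test. The lists hold factors of the clock, PAR-bZIP targets, related families and hypoxia response genes. Of the 52, 0 were higher and 1 was lower in NOCT lines at an adjusted p under 0.05 in edgeR, beside 0.0232% and 0.0348% of all genes. At an unadjusted p under 0.05, 5 were higher and 3 lower, beside 7.38% and 6.52% of all genes, so the count was near the background. Their median log2 fold change was 0.0046.

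The gene that fell was RORB, a nuclear receptor of the clock, at 26.7, 26.2 and 19.2 CPM in GST lines 2, 8 and 9 and at 0.944, 3.19 and 2.06 CPM in NOCT lines 4, 11 and 12 (log2 fold change -3.55, SE 0.38, edgeR adjusted p 0.0279). Its adjusted p was 0.0878, 0.122, 0.186 and 0.0543 without GST line 2, GST line 8, GST line 9 and NOCT line 11. NR1D2, which encodes the repressor REV-ERB beta, was at 66.8, 68.7 and 66.8 CPM in GST lines and at 47.5, 52.4 and 50.0 CPM in NOCT lines. Every NOCT line was below every GST line for NR1D2 (log2 fold change -0.43, SE 0.09), as for 9.54% of all genes. NR1D2 did not pass over all genes in edgeR (adjusted p 0.121). It did so in DESeq2 (adjusted p 0.00604), in edgeR with no filter (0.0465) and in edgeR without NOCT line 12 (0.0461). Those fits called 508, 888 and 970 genes, against 10 in the edgeR fit of all lines with the filter. Of the 5 REV-ERB and ROR receptors, 4 were tested, 1 was called lower and 0 higher, with a median log2 fold change of -0.23.

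No member of the other 7 lists was called in either direction. Among the 4 activators of the clock the median log2 fold change was -0.02, with CLOCK at -0.34 (edgeR adjusted p 0.302) and ARNTL2 at 0.18 (0.481). ARNTL2 was at 0.10 without GST line 2. The 6 repressors of the PER, CRY and CIART list, which are partners in the loop that drives DBP and TEF, had a median of 0.17, with PER2 at 0.31 (edgeR adjusted p 0.498) and CRY2 at 0.28 (0.521). Without GST line 8 these were 0.17 and 0.19, and PER2 was at 0.53 with the level of its neighbours removed. Among the 8 clock kinases and ubiquitin ligase subunits the median was 0.07. There CSNK1E, a kinase of PER proteins on chromosome 22, had 0.25 (edgeR adjusted p 0.343), with neighbours 0.28 higher in NOCT lines. It was at -0.028 with their level removed and at 0.16 without GST line 2.

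Known targets of PAR-bZIP factors in drug and haem metabolism differed widely in level. Of 13 listed genes, 7 had too few counts for the test, with at most 7 counts in any line and 0 counts throughout for NR1I3 and CES1. Of the 6 tested, CYP2E1 was at 0.257 TPM, and the others were ALAS1 (haem synthesis) at 40.4 TPM, POR (the electron donor of P450 enzymes) at 25.0, ABCB1 (a drug exporter) at 21.5, CES2 at 21.2 and AHR at 9.45. The median log2 fold change over the 6 tested was 0.16. CES2, a carboxylesterase, was at 36.5, 32.8 and 34.4 CPM in GST lines and at 46.1, 43.2 and 42.9 CPM in NOCT lines (log2 fold change 0.35, SE 0.10, edgeR adjusted p 0.204). The neighbours of CES2 were 0.22 higher in NOCT lines, and with their level removed its fold change was 0.13 (edgeR adjusted p 0.535). AHR, the receptor for aromatic hydrocarbons, was at 24.7, 20.3 and 19.7 CPM against 32.7, 35.04 and 26.0 CPM (log2 fold change 0.54, SE 0.15, edgeR adjusted p 0.2102). Without NOCT line 12, AHR had 0.65 with an edgeR adjusted p of 0.0343, in a fit that called 970 genes against 10 with all 6 lines. With any other line left out, the edgeR adjusted p of AHR was 0.208 to 0.589. For both genes every NOCT line was above every GST line, beside 10.5% of all genes in that direction.

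The lists for the families closest to the 6 factors gave no call. Of genes tested, 0 of 6 on the C/EBP list and 0 of 7 on the HES and HEY list were called. The C/EBP list includes CEBPZ, which shares the symbol and was not checked for a bZIP domain. CEBPG, a C/EBP partner, varied across groups, with 175, 85.5 and 126 CPM in GST lines 2, 8 and 9 and 180, 181 and 85.4 CPM in NOCT lines 4, 11 and 12. As for BHLHE40, GST line 8 and NOCT line 12 were its lowest lines. DDIT3, a stress-induced relative, was at 0.12 on the log2 scale (edgeR adjusted p 0.822). HEY2 was at 0.38 (edgeR adjusted p 0.328) and HEYL at 0.77 (0.3999), both Notch-responsive relatives of the DEC repressors. HEY2 was at 0.25 without NOCT line 11, and HEYL at 0.32 without NOCT line 4. Of 12 hypoxia response genes, the program known to include BHLHE40, 11 were tested and 0 called, with a median log2 fold change of -0.22. P4HA1, a collagen hydroxylase gene, had 0.30 (edgeR adjusted p 0.353) and LDHA, lactate dehydrogenase, -0.22 (0.376).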

How the data were processed

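Libraries were strand-specific 50 bp TruSeq libraries depleted of ribosomal RNA, with ERCC spike-ins. The authors used STAR 2.5.2b, HTSeq 0.6.1p1 and GRCh38, per the submitters' processing notes; the annotation release is not given in the sources used here. The deposited files hold raw counts per gene for each line, TPM values by the authors, and the authors' DESeq2 1.16.1 comparison with the mean normalised signal, log2 fold changes, a Wald score and p-values. Rows naming no gene held 26.5% to 30.6% (no feature), 2.02% to 2.41% (ambiguous) and 13.3% to 14.6% (not unique) of reads and were left out. Ratios of counts to TPM between libraries were the same for every gene.

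Genes were kept with filterByExpr, scaled by TMM and tested with the quasi-likelihood test of edgeR 4.0.16 (R 4.3.3), with Benjamini-Hochberg adjustment over 17261 genes; standard errors came from the F statistic. The fitting script was tested on simulated data. Replicates are biological replicates of separate clonal lines per the labels, so p-values set the group difference against the spread between lines. With 1 harvest per line, differences between clones, harvests and libraries cannot be told apart in that spread. Likeness is the Pearson correlation of log2(CPM + 0.5) over 6 lines, with genes of at least 5 CPM; the 2 nearest genes are named. Neighbours are up to 50 tested genes of at least 1 CPM on each side, relative to the mean of the lines. Coordinates are from GENCODE 29 (GRCh38) and sequences from RefSeq (GRCh38.p14). The rule named the 6 genes, and of each list the genes past the threshold and the 2 with the smallest p. Alternatives were DESeq2 1.42.0, limma 3.58.1, other scalings, filters and units, the neighbour level as an offset, and leaving out each line. The 6 genes and all lists were chosen with earlier results of these data known. Single nearby genes were named with their values known. Some genes that this rule names are not reported here.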

Additional observations from a re-analysis of the deposited data

How the results depend on the processing

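Across 16 alternatives, 0 of the 6 genes passed an adjusted p of 0.05 in any fit, and each kept its direction except NFIL3, which was at 0.14 with the neighbour level removed. The smallest adjusted p of any was 0.0686, for BHLHE40 with no low-count filter, where its unadjusted p was 0.00203 against 0.146. HLF ran from -0.84 to -0.34 and had an unadjusted p above 0.05 without GST line 2 (0.0559), GST line 9 (0.0515) or NOCT line 4 (0.0527), with spike-in totals as library sizes (0.0633) and on log2(TPM + 0.1) (0.0633). The order of the 6 levels was the same in CPM per kilobase of exon. In scalings chosen after seeing the data, HLF had groups apart in all 5, and BHLHE41 joined it with spike-in totals and in TPM.

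The count of genes called over all genes, 10, became 35 with the neighbour level removed, 34 with total gene counts, 22 with spike-in totals, 888 with no filter, 508 in DESeq2 and 16 in limma voom, and 0 to 970 when 1 line was left out. It was 0 without GST line 9 and 970 without NOCT line 12. Of the listed genes, the count of 1 became 2 with no filter and in DESeq2, and 0 to 5 when 1 line was left out, 5 being without NOCT line 12. CSNK1E turned to -0.028 with the neighbour level removed. With 1 line left out, CEBPG ran from -0.024 to 0.49 and DDIT3 from -0.00010 to 0.19. The cause of these changes was not tested. No paired analysis was possible because the groups share no replicate number. HLF rested on 42 to 82 counts a library, the fewest of the 6 genes.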
